A study of Mus musculus with 6 samples.

Results

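The report concerns 9 genes for transcription factors of the trophectoderm and of the posterior (caudal) embryo, taken by symbol from a table of 27179 genes: Hand1, Eomes, Gata3, Cdx1, Cdx2, Tead4, Tfap2c, Elf3 and Ets2. They were followed in 6 RNA-seq libraries of mouse embryonic stem cells (mESCs), kept on gelatin in serum with the cytokine LIF. Cells of both groups expressed Tfe3-ERT2, a fusion of Tfe3 with a hormone-binding domain that keeps this transcription factor outside the nucleus until 4-hydroxytamoxifen (4OHT) is given. The 4OHT group (3 libraries) had 1 µg/mL for 48 h, and the EtOH group (3 libraries) had the ethanol vehicle. The labels do not say what drives the fusion, how many clones were used or whether libraries of a group were separate cultures, so p-values here reflect the spread between libraries alone, which may be technical. Cells without the fusion that received 4OHT were not analysed here, so an effect of the drug and one of nuclear Tfe3 cannot be told apart.

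The trophectoderm is the outer epithelium of the blastocyst, which forms the placenta. In its precursors the DNA-binding protein Tead4, with the coactivator Yap1, turns on Cdx2 and Gata3 where the Hippo kinase cascade is off, and Tfap2c, Eomes, Elf5, Ets2 and Hand1 act in the trophoblast lineage that follows. Cdx2 and the pluripotency factor Oct4 (Pou5f1) repress each other, and mESCs seldom make trophoblast without such a switch. Later, Cdx1, Cdx2 and Cdx4 pattern the posterior body axis and the gut through HOX genes, Cdx1 as a target of WNT and retinoic acid signals, while Eomes acts in the primitive streak beside the related factor T (brachyury).

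Total counts ran from 4092877 to 6427880 per library, and a count of 3 in a library corresponded to between 0.469 and 0.738 CPM (reads of a gene after TMM scaling for library size), a floor for counting error only. The 8 markers of mESCs, among them Pou5f1, Sox2 and Nanog, summed to between 4633 and 4773 CPM in EtOH and between 4812 and 4815 in 4OHT. Tfe3 was 1.25-fold lower in 4OHT (1038 ± 35.1 to 832 ± 4.34 CPM, SD, n = 3 each, edgeR adjusted p = 9.8e-19), a value that does not separate the fusion from the endogenous gene.

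Hand1, Cdx1, Eomes, Gata3 and Tead4 rose most among these factors, between 1.83-fold and 5.98-fold, and Elf3, Ets2 and Tfap2c rose by less, between 1.16-fold and 1.38-fold. Cdx2, the factor most closely tied to trophectoderm identity, was low in both groups, whose values overlapped. The minimum for testing was 2.08 CPM in 3 libraries (edgeR's filterByExpr). The 7 factors other than Hand1 and Cdx2 reached it in all 3 libraries of both groups. Of these, 7 were higher and 0 lower in 4OHT by edgeR's quasi-likelihood test at a Benjamini-Hochberg adjusted p under 0.05. Their median log2 fold change was 0.87. The factors were chosen with earlier results of these data known, so this count and median are no independent evidence. Among all 12345 genes tested, 21.4% were higher and 20.6% lower, and the median log2 fold change was −0.0024. Hand1 reached the minimum in 4OHT only and therefore had to differ to be tested, and Cdx2 did not reach it. All 7 had EtOH and 4OHT values that did not overlap, as had 48.8% of the genes tested. In bulk RNA, more cells that express a gene and more RNA per cell cannot be told apart.

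**Figure D1:**
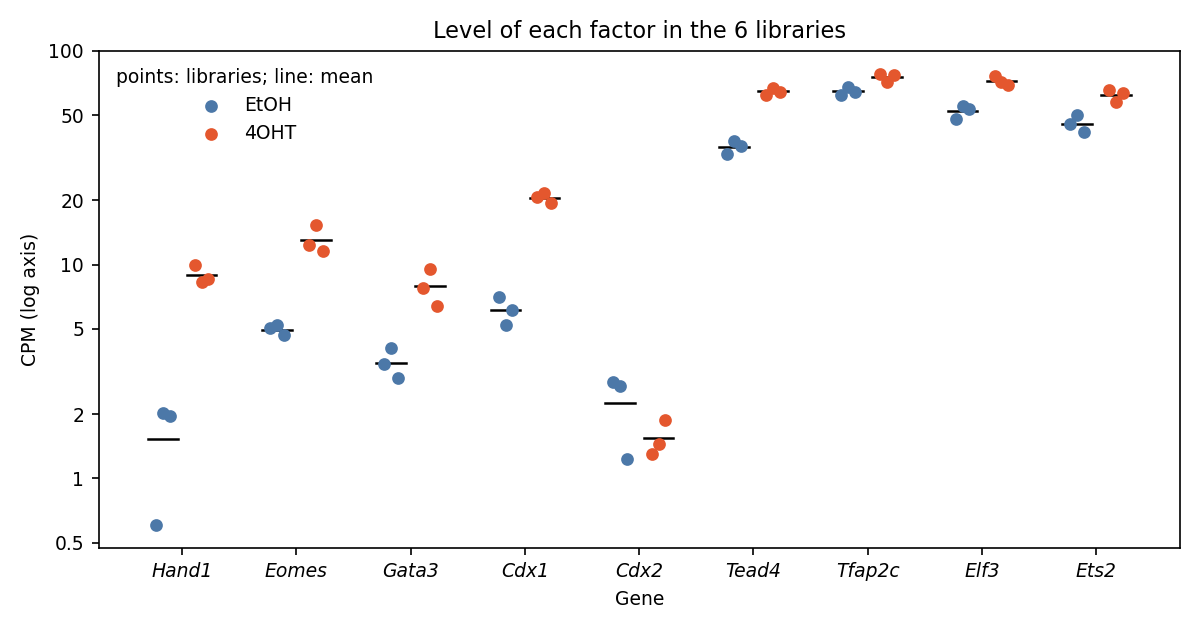
Level of the 9 factors in each library in CPM on a log axis, EtOH in blue and 4OHT in orange, with a point per library and a line at the group mean. The 4OHT points lie above the EtOH points for each factor except Cdx2, whose groups overlap.

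Promoters in the RefSeq tables for GRCm38.p6 were found for 5 of the 9 genes (Elf3, Gata3, Cdx2, Eomes and Ets2), and 4 were not in them (Hand1, Cdx1, Tead4 and Tfap2c). The 250 bases before the start are shown for 3 genes: Eomes as the largest rise among the 5, Elf3 as the most abundant factor per length, and Cdx2 as the one whose groups overlapped. They lie at chr9:118477939-118478188 (plus strand), chr1:135258473-135258722 (minus strand) and chr5:147307250-147307499 (minus strand), written 5′ to 3′ on the gene's strand, and capitals mark the motif matches described after them.
Eomes: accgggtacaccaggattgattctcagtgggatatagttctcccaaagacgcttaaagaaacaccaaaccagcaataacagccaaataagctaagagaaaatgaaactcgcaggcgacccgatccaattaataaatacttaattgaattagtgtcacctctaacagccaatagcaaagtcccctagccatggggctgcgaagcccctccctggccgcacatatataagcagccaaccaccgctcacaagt
Elf3: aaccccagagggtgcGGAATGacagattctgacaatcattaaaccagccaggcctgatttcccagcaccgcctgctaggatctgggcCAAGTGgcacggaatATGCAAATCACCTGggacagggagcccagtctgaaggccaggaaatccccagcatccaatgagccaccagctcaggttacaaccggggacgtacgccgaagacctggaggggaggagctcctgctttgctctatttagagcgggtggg
Cdx2: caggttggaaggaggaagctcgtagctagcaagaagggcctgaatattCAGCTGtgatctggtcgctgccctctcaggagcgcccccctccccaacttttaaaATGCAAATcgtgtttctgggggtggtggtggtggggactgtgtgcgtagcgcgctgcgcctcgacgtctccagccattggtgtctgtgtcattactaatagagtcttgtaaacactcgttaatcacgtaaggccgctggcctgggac
Motifs were searched on both strands. The letters CACGTG, the E-box form bound by MiT/TFE factors such as Tfe3, occurred in none of the 5 windows, and in 6.02% of all 32851 promoter windows of this length. The wider E-box CANNTG, which includes CACGTG and which Hand1-type factors bind, occurred at 2 places before Elf3 (CAAGTG and CACCTG) and at 1 place before Cdx2 (CAGCTG), against 66.2% of all windows with at least 1. The TEAD-type motif GGAATG occurred before Elf3 alone among the 5, and in 12.6% of all windows. The octamer ATGCAAAT, a motif of POU factors such as Oct4 that was added to the search after the sequences were seen, stood before Elf3 and before Cdx2, and in 1.6% of all windows. In Elf3 the octamer directly precedes CACCTG. The windows of Eomes, Gata3 and Ets2 held none of these letters, which says nothing about other regions, and the Gata3 window belongs to a start inside the annotated gene. Binding was not measured in these libraries.

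Hand1 (Entrez Gene 15110; GRCm38 chromosome 11, 57828713 to 57832147), a basic helix-loop-helix factor needed for trophoblast giant cells and for mesoderm outside the embryo, had 3, 9 and 8 counts with EtOH, against 46, 46 and 55 with 4OHT. EtOH replicate 1 was the lowest, at the floor of 0.604 CPM, and the lowest 4OHT library stood 4.08 times above the highest EtOH library. In CPM, Hand1 went from 1.54 ± 0.807 to 8.96 ± 0.901 (SD, n = 3 each, edgeR log2 fold change 2.58, SE 0.31, adjusted p = 8.5e-14). Because it reached the minimum in 4OHT alone, the value without a filter on low counts belongs beside this one (log2 fold change 2.59, edgeR adjusted p = 1.1e-15). From counts alone the ratio was 5.97, with a 95% interval of 3.73 to 10.1 that covers counting error only.

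Eomes (Entrez Gene 13813; chromosome 9, 118478186 to 118486132), a T-box factor of trophoblast stem cells and of the primitive streak, had 25, 23 and 19 counts with EtOH, against 57, 85 and 74 with 4OHT. The lowest 4OHT library was 2.22 times the highest EtOH library. The level went from 4.97 ± 0.268 to 13.1 ± 1.98 CPM (2.62-fold, SE 0.21 on the log2 scale, edgeR adjusted p = 1.1e-09, n = 3 each). The EtOH libraries were close together, with a coefficient of variation of 5.40%, against 15.2% in 4OHT. An antisense gene model covers 2.84% of the exon bases of Eomes, and the strand setting of the counting is not stated.

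Gata3 (Entrez Gene 14462; chromosome 2, 9857078 to 9887953), a zinc finger factor that acts beside Cdx2 under Tead4, had 17, 18 and 12 counts with EtOH, against 36, 53 and 41 with 4OHT. It rose 2.25-fold, from 3.48 ± 0.561 to 7.93 ± 1.58 CPM (SE 0.26 on the log2 scale, edgeR adjusted p = 4.5e-05, n = 3 each), and the nearest libraries of the groups were 1.57 times apart. Other gene models on both strands share 5.83% of its exon bases.

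Tead4 (Entrez Gene 21679; chromosome 6, 128227143 to 128300813), which acts upstream of Cdx2 and Gata3, had 163, 167 and 145 counts with EtOH, against 287, 373 and 412 with 4OHT. After scaling for depth the libraries of a group lay close together (coefficient of variation 6.98% in EtOH and 3.87% in 4OHT). The level went from 35.4 ± 2.47 to 64.6 ± 2.50 CPM (1.83-fold, SE 0.09 on the log2 scale, edgeR adjusted p = 4.3e-19, n = 3 each). Larger rises were found in 3.94% of the genes tested.

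Of Cdx1 and Cdx2, homeodomain factors of the same family, Cdx1 rose and Cdx2 was too low to be tested. Cdx1 (Entrez Gene 12590; chromosome 18, 61018862 to 61036199) had 35, 23 and 25 counts with EtOH, against 95, 120 and 124 with 4OHT, and every 4OHT library was at least 2.75 times the highest EtOH library in CPM. It went from 6.13 ± 0.925 to 20.5 ± 1.14 CPM (3.32-fold, SE 0.18 on the log2 scale, edgeR adjusted p = 3.0e-18, n = 3 each). Cdx2 (Entrez Gene 12591; chromosome 5, 147300900 to 147307249) had 14, 12 and 5 counts with EtOH, against 6, 8 and 12 with 4OHT, and the groups overlapped (2.25 ± 0.888 and 1.54 ± 0.298 CPM, two-sided exact permutation test p = 0.4, n = 3 each, where 0.1 is the smallest possible). The ratio of its summed counts was 0.682 (95% interval 0.389 to 1.19, counting error only), so a rise of more than 1.19-fold lies outside that interval and a fall to 0.389 of the EtOH level lies at its edge. Tested without a filter on low counts, Cdx2 had a log2 fold change of −0.55 (SE 0.44, edgeR adjusted p = 0.42). In RPKM (the CPM divided by the deposited gene length in kilobases), Cdx1 was 3.06, 2.35 and 6.13 times Cdx2 in the EtOH libraries and 19.4, 18.4 and 12.7 times in the 4OHT libraries. These ratios did not overlap between groups (two-sided exact permutation test p = 0.1, the smallest that 3 against 3 libraries allow).

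Tfap2c, Elf3 and Ets2 were well expressed in EtOH already, and their rises were small. Tfap2c (Entrez Gene 21420; chromosome 2, 172545678 to 172558622), the AP-2 gamma factor of trophectoderm and germ cells, had 309, 300 and 261 counts with EtOH, against 358, 394 and 495 with 4OHT. It went from 64.8 ± 2.83 to 75.4 ± 3.73 CPM (1.16-fold, SE 0.07 on the log2 scale, edgeR adjusted p = 0.0082, n = 3 each), and its groups were separated by a factor of 1.05. That call was lost with DESeq2 (adjusted p = 0.068) and with edgeR without EtOH replicate 1 (adjusted p = 0.062). Elf3 (Entrez Gene 13710; chromosome 1, 135253574 to 135258472), an ETS-type factor of epithelia, had 238, 244 and 218 counts with EtOH, against 352, 395 and 442 with 4OHT (1.38-fold, 52.2 ± 3.81 to 72.2 ± 3.78 CPM, edgeR adjusted p = 4.9e-08, n = 3 each). An antisense gene model covers 7.31% of its exon bases. Ets2 (Entrez Gene 23872; chromosome 16, 95702407 to 95721049), an effector of growth factor signals needed in trophoblast stem cells, had 226, 221 and 169 counts with EtOH, against 303, 321 and 406 with 4OHT (1.36-fold, 45.7 ± 4.19 to 62.4 ± 4.04 CPM, edgeR adjusted p = 1.1e-06, n = 3 each). For both, the lowest 4OHT library lay above the highest EtOH library, by 1.25 times for Elf3 and 1.16 times for Ets2.

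**Figure D2:**
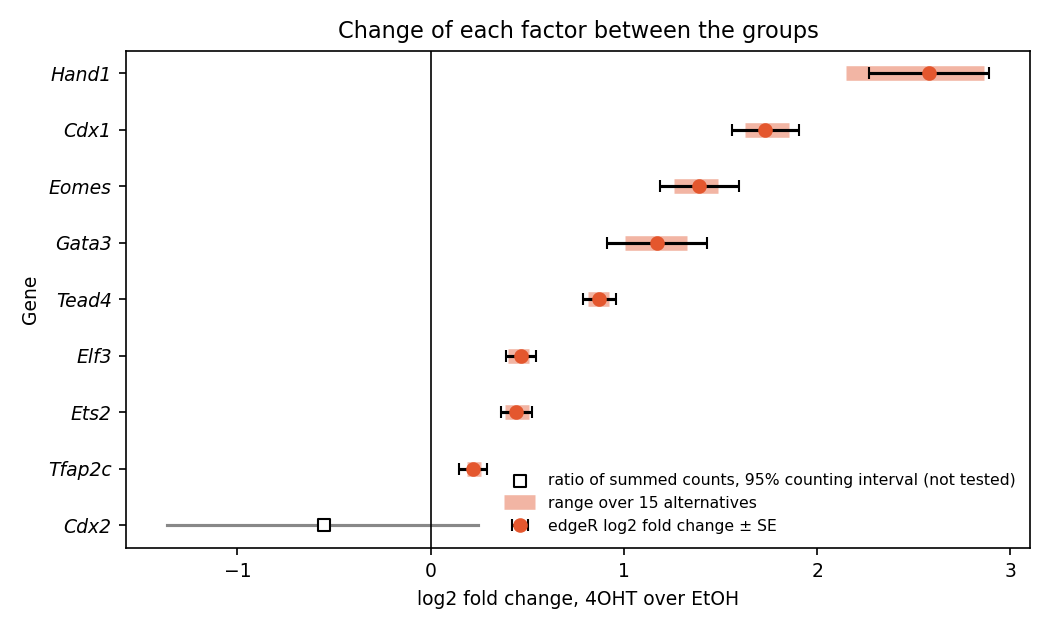
Log2 fold change of each factor, 4OHT over EtOH, with its SE (black bars) and the range over 15 alternative settings (pale bars). Cdx2 was not tested and is shown as the ratio of summed counts with a 95% counting interval that spans 0, while the other 8 values lie between 0.22 and 2.58.

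Per length, Elf3 and Tfap2c led in both groups, and Hand1 changed its place in the order most. In EtOH, Elf3 (26.1 ± 1.90 RPKM, SD, n = 3) and Tfap2c (21.1 ± 0.923) led, followed by Ets2 (12.8 ± 1.18) and Tead4 (11.5 ± 0.804), whose libraries overlapped. Cdx1 stood at 3.50 ± 0.529 RPKM, and Eomes (1.34), Gata3 (1.08), Cdx2 (1.05) and Hand1 (0.809) followed, each overlapping its neighbour. In 4OHT, no factor overlapped its neighbour in the order. Elf3 (36.1 ± 1.89 RPKM) and Tfap2c (24.6 ± 1.22) still led, Tead4 (21.0 ± 0.813) stood above Ets2 (17.5 ± 1.14), and Cdx1 reached 11.7 ± 0.650. Hand1 (4.72 ± 0.475 RPKM) now stood above Eomes (3.52), Gata3 (2.47) and Cdx2 (0.718). Hand1 thus went from the last place to the sixth, and 72.6% of all genes tested still had a higher RPKM in 4OHT. For Cdx2 that share was 97.1%, and for Elf3 20.5%.

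**Figure D3:**
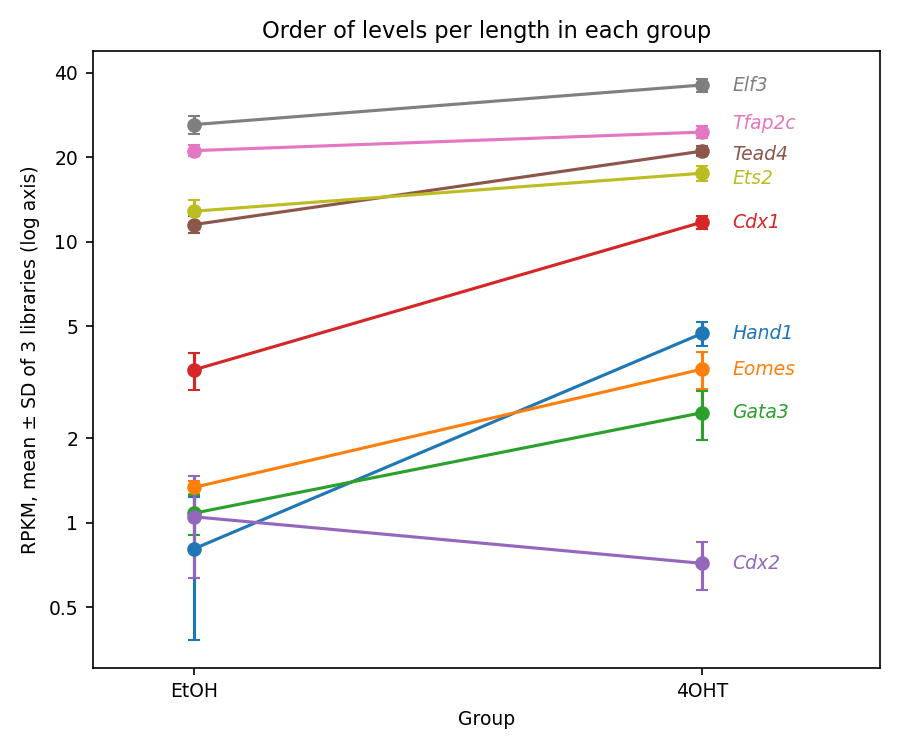
Mean RPKM ± SD of the 9 factors in EtOH and 4OHT (n = 3 each, log axis), with a line joining the means of a gene. Hand1 crosses Cdx2, Gata3 and Eomes, Tead4 crosses Ets2, and Cdx2 is the only line that runs downwards.

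Within their gene families, Cdx1, Tead4, Gata3 and Tfap2c held a larger share in each 4OHT library than in any EtOH library. Of the summed RPKM of Cdx1, Cdx2 and Cdx4, Cdx1 held 68.9%, 61.9% and 66.0% in the EtOH libraries and 91.1%, 90.2% and 89.7% in the 4OHT libraries. Of the 4 TEAD genes, Tead4 held 10.3%, 10.96% and 10.9% in EtOH and 16.5%, 17.3% and 17.1% in 4OHT. Gata3 held 24.0 ± 3.90% of the GATA family in EtOH and 33.1 ± 3.43% in 4OHT, and Tfap2c 94.4 ± 1.46% and 96.7 ± 0.898% of the AP-2 family (n = 3 each). These 4 shares did not overlap between groups (two-sided exact permutation p = 0.1 each, the smallest possible, with 6 families compared). The shares of Elf3 among the ELF genes (48.1 ± 1.84% and 50.9 ± 2.64%) and of Ets2 beside Ets1 (88.1 ± 1.00% and 86.7 ± 1.43%) overlapped (exact permutation p = 0.2 and 0.3).

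**Figure D4:**
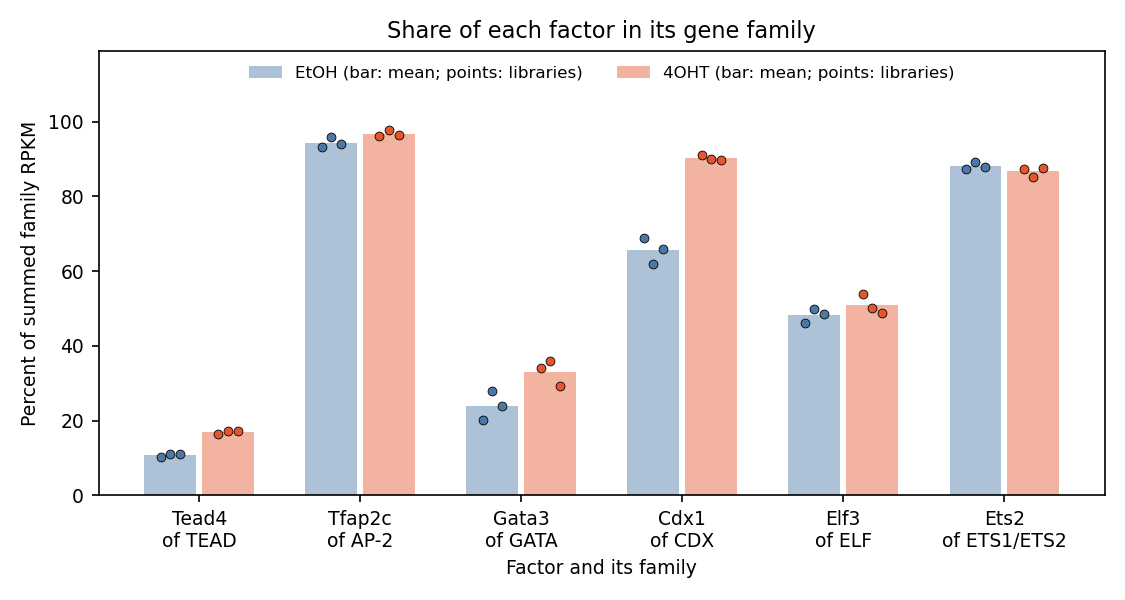
Share of each factor in the summed RPKM of its gene family, in percent, with bars for the mean and points for the 3 libraries of each group. Cdx1 stands between 61.9% and 68.9% in EtOH and between 89.7% and 91.1% in 4OHT.

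The 22 closest relatives of the factors, among them the other members of these families, gave 9 tested genes. Of these, 5 were higher and 0 lower (median log2 fold change 0.37), against 21.4% and 20.6% of all genes tested. This list and those below were drawn up with earlier results known, so their counts are no independent evidence. Tead1 rose 1.30-fold, from 320 ± 16.7 to 415 ± 12.4 CPM (edgeR adjusted p = 4.2e-17). The ETS-type genes Elf1, Elf4 and Ets1 rose 1.42-fold, 1.90-fold and 1.54-fold. Gata2, a partner of Gata3 in the placenta, had 21, 12 and 17 counts with EtOH, against 35, 39 and 33 with 4OHT (1.75-fold, edgeR adjusted p = 0.0092), a call lost with DESeq2 (adjusted p = 0.064) and without EtOH replicate 2 (edgeR adjusted p = 0.079). Not called were Tead2 (124 and 121 CPM), Tead3 (16.0 and 12.7 CPM, edgeR adjusted p = 0.11, and 0.027 without 4OHT replicate 2), Elf2 (48.2 and 53.3 CPM) and Gata4 (5.22 and 5.75 CPM). The other 13 relatives were too low to be tested, with at most 16 counts in a library. Tfap2e was one of them, at 13, 6 and 9 counts with EtOH and 3, 3 and 5 with 4OHT (edgeR adjusted p = 0.017 without a filter), and so were Cdx4 (4, 4 and 8 against 4, 6 and 4), Tfap2a (4, 4 and 4 against 11, 5 and 12) and Gata6 (10, 8 and 1 against 6, 14 and 16).

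Genes of the Hippo cascade, which sets the activity of TEAD factors, rose in part. Of 21 listed and tested, 11 were higher and 0 lower (median log2 fold change 0.24). Among all genes tested, 21.4% were higher and 20.6% lower. This list and that of YAP and TEAD readouts were drawn up with earlier results known, so their counts are no independent evidence. DESeq2 gave 9 higher and 0 lower, upper quartile factors 10 and 2, and edgeR without EtOH replicate 3 gave 9 and 2. Stk3, among the 11 and named after its values were seen, had overlapping groups. Its call was lost with DESeq2 (adjusted p = 0.16) and in other alternatives. Amot, a scaffold that holds YAP at cell junctions, rose 2.47-fold (27.9 ± 3.23 to 69.75 ± 4.33 CPM by group mean, edgeR adjusted p = 2.6e-33) and Wwtr1, the coactivator TAZ, 1.65-fold. Nf2, which encodes the upstream activator Merlin, rose 1.46-fold. Yap1 went from 223 to 241 CPM (log2 fold change 0.11, edgeR adjusted p = 0.038). Of 8 tested genes in wide use as readouts of YAP and TEAD, 6 were higher and 0 lower (median log2 fold change 0.62), and Lats2 and Amotl2 stand on both lists. Ccn1 rose 1.67-fold (75.3 ± 1.90 to 126 ± 6.38 CPM), Ccn2 1.55-fold, Lats2, a kinase of the cascade, 1.74-fold and Amotl2 1.30-fold.

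Structural genes of the trophectoderm epithelium were higher in 12 of 13 tested and lower in 0 (median log2 fold change 1.16). Among all genes tested, 21.4% were higher and 20.6% lower. The list was drawn up with these results known, so its count is no independent evidence. The claudin gene Cldn4, of tight junctions, had 157 ± 7.39 CPM in EtOH and 415 ± 8.96 in 4OHT (2.64-fold, edgeR adjusted p = 1.2e-88). Krt8, Aqp3 and Fabp3 were named with it, at 2.23-fold, 10.8-fold and 8.24-fold. Cldn7, picked out with its values in view, missed the threshold (55.1 and 49.0 CPM, edgeR adjusted p = 0.080, and 0.032 with upper quartile factors, both with the lower value in 4OHT).

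Of 18 trophoblast and placental genes 9 were tested. Of these, 5 reached the minimum in all libraries of both groups. In the main test 3 of the 5 were higher (Id2, Fgfr2 and Gata2) and 0 lower. Satb1, also of the 5 and named after its values were seen, had a lower mean in 4OHT and was not called (9.41 and 6.70 CPM, edgeR adjusted p = 0.070). Satb1 was called lower by edgeR with upper quartile factors (adjusted p = 0.048), with thinning (adjusted p = 0.046) and without EtOH replicate 1 (adjusted p = 0.014). Rhox6 and Rhox9, both higher, reached it in all 3 libraries of 4OHT alone, and Dlx3, lower, in those of EtOH alone, so they were tested through the group in which they were high. Id2, an inhibitor of helix-loop-helix factors, rose 2.27-fold (67.3 ± 7.10 to 152 ± 4.91 CPM, edgeR adjusted p = 2.9e-49). The homeobox gene Rhox6, of a cluster of similar genes whose reads the counting could split, rose from 10, 10 and 16 counts to 38, 38 and 56 (2.97-fold, edgeR adjusted p = 1.1e-07 without a filter). The receptor gene Fgfr2 rose 1.36-fold, Rhox9 2.17-fold (edgeR adjusted p = 0.0034 without a filter, and not called without EtOH replicate 3, edgeR adjusted p = 0.079) and Gata2 as given. Dlx3, needed in the placenta and named after its values were seen, fell from 21, 18 and 17 counts to 7, 6 and 18 (edgeR adjusted p = 0.0042, and 0.0065 without a filter). Some genes of the list were at or near 0: Elf5 had 1 count in all, in a 4OHT library, and Tpbpa, Prl3d1 and Prl2c2 had 0 in every library. Ascl2, named after its values were seen, had 47, 38 and 34 counts with EtOH, against 44, 65 and 80 with 4OHT. It was not called (edgeR adjusted p = 0.10). Gcm1 and Pparg, low genes of the same list, are given under the other observations. The list summed to between 109 and 134 CPM in EtOH and between 222 and 231 in 4OHT, most of it Id2.

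Most genes of the posterior embryo, in which Cdx1 acts, were too low to be tested. Of 23 listed, 3 were tested, and 1 of these, Fgf17, reached the minimum in all libraries of both groups. T fell from 22, 25 and 16 counts to 0, 5 and 4 (8.62-fold lower, edgeR adjusted p = 1.1e-09), in the libraries in which the related Eomes rose. T reached the minimum in EtOH alone, so it had to differ to be tested, and without a filter it had a log2 fold change of −3.10 (edgeR adjusted p = 3.4e-10). Fgf17, a ligand of the posterior embryo, was 2.33-fold lower, at 58.7 ± 4.87 CPM in EtOH and 25.1 ± 1.04 in 4OHT (edgeR adjusted p = 9.0e-28). None of the 6 intestinal genes linked to CDX factors was high enough to be tested. Of 9 mesendoderm markers T was the one tested, and Lhx1 and Cer1 had 0 counts in every library.

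Markers of other cell types in which these factors act were low. Extraembryonic mesoderm, a site of Hand1, had 2 tested markers of 10 in the table. Tbx20 rose 1.85-fold, from 7.001 ± 1.42 to 13.1 ± 1.79 CPM (edgeR adjusted p = 3.0e-05), and Kdr from 4, 0 and 4 counts to 12, 12 and 21, reaching the minimum in 4OHT alone (edgeR adjusted p = 0.00036 without a filter). That list summed to between 13.5 and 14.8 CPM in EtOH and between 21.7 and 23.4 in 4OHT, and Hand2 had 0 counts in every library. Of the 6 primitive endoderm markers 3 were tested and 0 called (15.01 to 22.8 CPM in sum in EtOH and 23.2 to 27.4 in 4OHT). Of the 7 fibroblast markers 3 were tested and 0 called (13.5 to 21.4 and 17.5 to 21.9 CPM). The part of such cells in the rises of the 9 factors was not tested. Among the 8 mESC markers, 3 were higher (Esrrb, Zfp42 and, named after its values were seen, Nanog) and 2 lower. Pou5f1 was 1.14-fold lower, at 791 ± 25.4 CPM in EtOH and 697 ± 25.8 in 4OHT (edgeR adjusted p = 7.8e-07), and Tdgf1, a Nodal coreceptor, was 1.28-fold lower, while Esrrb, which mESCs and trophoblast stem cells share, rose 1.56-fold.

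**Figure D5:**
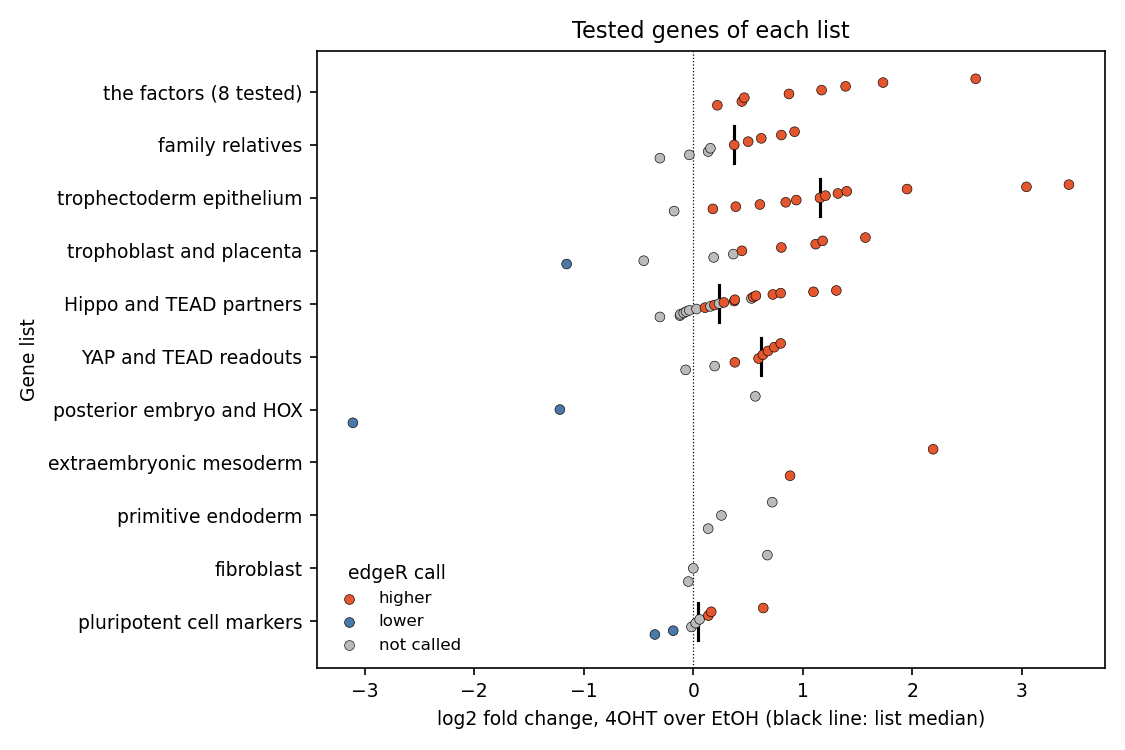
Log2 fold change, 4OHT over EtOH, of each tested gene by list, with a black line at the median of a list (none for lists in which a gene did not reach the minimum in all libraries of both groups). Orange marks genes called higher, blue lower and grey not called by edgeR, and 12 of 13 trophectoderm epithelium genes are orange while T and Fgf17 lie to the left.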

How the data were processed

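Counts per gene in 6 libraries were deposited by the authors as raw whole numbers, with a gene length in bases. The authors' tools were fastp, STAR and featureCounts with build mm10, per the submitters' processing notes, which give no roles; which versions, annotation and strand setting were used, and how multi-mapping reads were treated, is not given in the sources used here. Of 27179 genes, 1314 had no symbol (0.411% to 0.478% of counts) and stayed in the tests.

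Genes were filtered with filterByExpr (minimum count 10, total 15), scaled by TMM and tested over all 12345 kept with edgeR 4.0.16 (robust quasi-likelihood) in R 4.3.3, with Benjamini-Hochberg adjustment and a threshold of 0.05. Fold changes are model coefficients without shrinkage. Alternatives were DESeq2 1.42.0 and limma-voom (limma 3.58.1), other factors and filters, thinning, the replicate block and leaving out each library, and, after seeing the data, leaving out Rn45s. The steps were tested on simulated data. Replicate pairs all differed by more than counting error.

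The 9 factors and the lists were chosen with earlier results of these data known. Named were the 9 factors, Tfe3, up to 4 called genes of smallest p per list, relatives above 1 CPM and, for 2 factors, the 3 genes most alike; others are marked. One gene under this rule is not reported here.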

Additional observations from a re-analysis of the deposited data

How the results depend on the processing

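Of the 9 factors, 8 were higher and 0 lower in the main test and in every alternative, except 7 with DESeq2 and 7 without EtOH replicate 1, where Tfap2c was lost. These counts include Hand1, which reached the minimum in 4OHT alone and had to differ to be tested. Leaving out each library gave 7 to 8 factors higher, and 2306 to 2544 genes higher and 2129 to 2407 lower among all tested (2643 and 2546 with all libraries). DESeq2 called 1926 and 1761. Upper quartile factors, which moved the median log2 fold change of all genes by −0.034, gave 2319 and 2958. With the replicate number as a block, 2585 and 2497 genes and 8 factors were called. Same-numbered libraries did not deviate together (correlations of −0.023, −0.016 and −0.017) and none correlated best with its own number, so the numbers were not used as pairs. Leaving out libraries, the log2 fold change of Tead2 (−0.036) ran from −0.0725 without EtOH replicate 1 to 0.0012 without EtOH replicate 2, and that of Gata4 (0.14) from −0.016 without EtOH replicate 3 to 0.23 without EtOH replicate 1. Causes were not tested. Depth limits Cdx2, Hand1 and the untested genes.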

Other observations

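Some low genes of the lists, named after their values were seen, separated the groups in CPM though they did not pass the minimum. Because they were picked with their values in view, the p-values given for them are no independent evidence. Gcm1, a factor of the placental labyrinth, had 1, 1 and 0 counts with EtOH, against 8, 9 and 10 with 4OHT (edgeR adjusted p = 0.00054 without a filter). Pparg, a nuclear receptor needed in trophoblast and in fat cells, stood at 0 counts throughout EtOH and at 3, 12 and 11 with 4OHT (edgeR adjusted p = 1.4e-05 without a filter), and the mucin gene Muc13, also of gut epithelium, at 0 throughout EtOH and at 3, 9 and 6 with 4OHT (0.00066). Wnt8a, a ligand of the primitive streak, went the other way, from 10, 10 and 6 counts to 3, 1 and 2 (edgeR adjusted p = 0.0018 without a filter). Fgf8 had 9, 3 and 3 counts with EtOH, against 0, 2 and 3 with 4OHT (edgeR adjusted p = 0.081 without a filter).

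By Pearson correlation of log2 CPM over the 6 libraries, the 3 genes most like Hand1 among 11400 (average log2 CPM 2 or more) included Gpx4 (r = 0.995) and Dock1 (0.994). Those most like Tfap2c, the called factor with the highest mean CPM, were Fmn2 (0.998), Clk3 (0.998) and Foxo3 (0.996). These values describe 6 libraries in 2 groups, so both the group difference and the spread between libraries enter them. They were picked as the highest among 11400 genes and are no evidence of a link. The fold changes of Gpx4 and Dock1 were smaller than that of Hand1 (log2 fold change 0.43 for Gpx4 and 0.47 for Dock1). Fmn2 was not called in the main test (log2 fold change 0.28, edgeR adjusted p = 0.071).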
